A study of Mus musculus with 16 samples.

Results

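The genes of the Fanconi anemia pathway, of homologous recombination and of the partner steps of DNA crosslink repair were followed through 16 sorted spermatogonia libraries. They were chosen by name, as 39 listed symbols, of which 38 are present among the 16383 genes of the table. Fancf, the remaining one, was not analysed here. All 38 reached the level needed for testing, an FPKM of 1 (fragments per kilobase of transcript, scaled to library size) in at least 4 libraries, as did 12907 of the 16383 genes. The cells were undifferentiated spermatogonia, the mitotic germ cells that include the stem cells of the testis, isolated by fluorescence-activated sorting from adult mice 10 days after busulfan, with no age given beyond adult. Every mouse had received busulfan at 10 mg/kg, so no library without busulfan enters any comparison. The 4 groups of 4 libraries were Spry4 germline knockout (titled Spry4 G-KO) with PD0325901, the same knockout with vehicle, wild type with PD0325901 and wild type with vehicle. They are called KO_PD, KO_vehicle, WT_PD and WT_vehicle, with the replicate number after the name of a single library. PD0325901 inhibits MEK1 and MEK2, the kinases that activate ERK, and was injected at 2.5 mg/kg on each of 7 days beginning on day 3. Vehicle was 10% DMSO in PBS on the same days. Spry4 encodes a feedback inhibitor of signalling from receptor tyrosine kinases to ERK. In the column names the knockout carries GCRT_Spry4KO and wild type carries Spry4ff. GCRT is in knockout names alone, so an effect of what it denotes cannot be told apart from loss of Spry4. Neither the markers of the sort nor the deleted stretch of Spry4 is stated in the labels.

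Busulfan alkylates DNA and can form crosslinks. A crosslink that joins the strands of the double helix to each other stops replication forks. In the Fanconi pathway a core complex with the E2 enzyme UBE2T puts ubiquitin on the FANCD2 and FANCI pair, nucleases held by SLX4 cut the crosslinked strand, translesion polymerases copy past what is left, and homologous recombination with BRCA1, BRCA2 and their partners mends the break. ATM, ATR and their kinases CHEK2 and CHEK1 signal the damage. Loss of Fanconi genes depletes germ cells in mice and in people, and many of these genes are transcribed most in S phase, when replication forks meet the lesions.

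FPKM is a level per length of transcript, so levels of different genes can be set side by side. The divisors of the FPKM values, estimated from the low values, lay between 23360600 and 36615200 reads, which puts the least abundant of the 38 genes, Rad51b, at 63 to 147 reads a library. Spry4 itself ran from 7.28 to 19.3 FPKM in the 8 knockout libraries and from 15.9 to 27.4 FPKM in the 8 wild-type libraries. It was lower in the knockout, and the ranges overlapped only through KO_PD 4 at 19.3 FPKM and WT_PD 1 at 15.9 FPKM. The next knockout value was 14.7 FPKM in KO_vehicle 4, and the next wild-type value 19.6 FPKM in WT_PD 2. Zbtb16, a transcription factor that marks undifferentiated spermatogonia, lay between 85.6 and 125 FPKM, and the germ cell helicase Ddx4 between 68.8 and 144 FPKM. Other cell types were present to unequal degrees. Acta2, the smooth muscle actin of the contractile peritubular cells around the tubules, spanned 367 to 5095 FPKM, and the spermatid protamine Prm1 reached 739 FPKM in KO_vehicle 3, against at most 32.5 FPKM in the other libraries. KO_PD 4 had the highest Acta2 of the knockout libraries, 3937 FPKM, and the part of other cells in its Spry4 value was not tested. Each column name carries a different SP number, but what it denotes is not stated. The labels thus do not say whether each replicate is its own animal. The p-values below therefore refer to spread among libraries that may be technical.

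The 38 genes were expressed over a wide range of mean levels. Rad50, the coiled-coil ATPase of the break sensor, stood highest at 29.96 FPKM over the 16 libraries, followed by the translesion protein Rev1 at 22.1 FPKM, the damage kinase Atm at 20.9 FPKM and Brca2 at 20.8 FPKM. Lowest were the recombination gene Rad51b at 0.944 FPKM, the core complex subunit Fancb at 1.44 FPKM and the nuclease Ercc4 at 2.47 FPKM. Between libraries a single gene varied much less, from 1.28-fold for Ercc1 to 2.48-fold for Chek2. The low and the high values fell in the same few libraries. KO_PD 4 was the lowest of the 16 for 18 of the 38 genes and WT_PD 3 for 11, and WT_PD 1 was the highest for 9, KO_vehicle 3 for 8 and KO_vehicle 2 for 7.

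**Figure D1:**
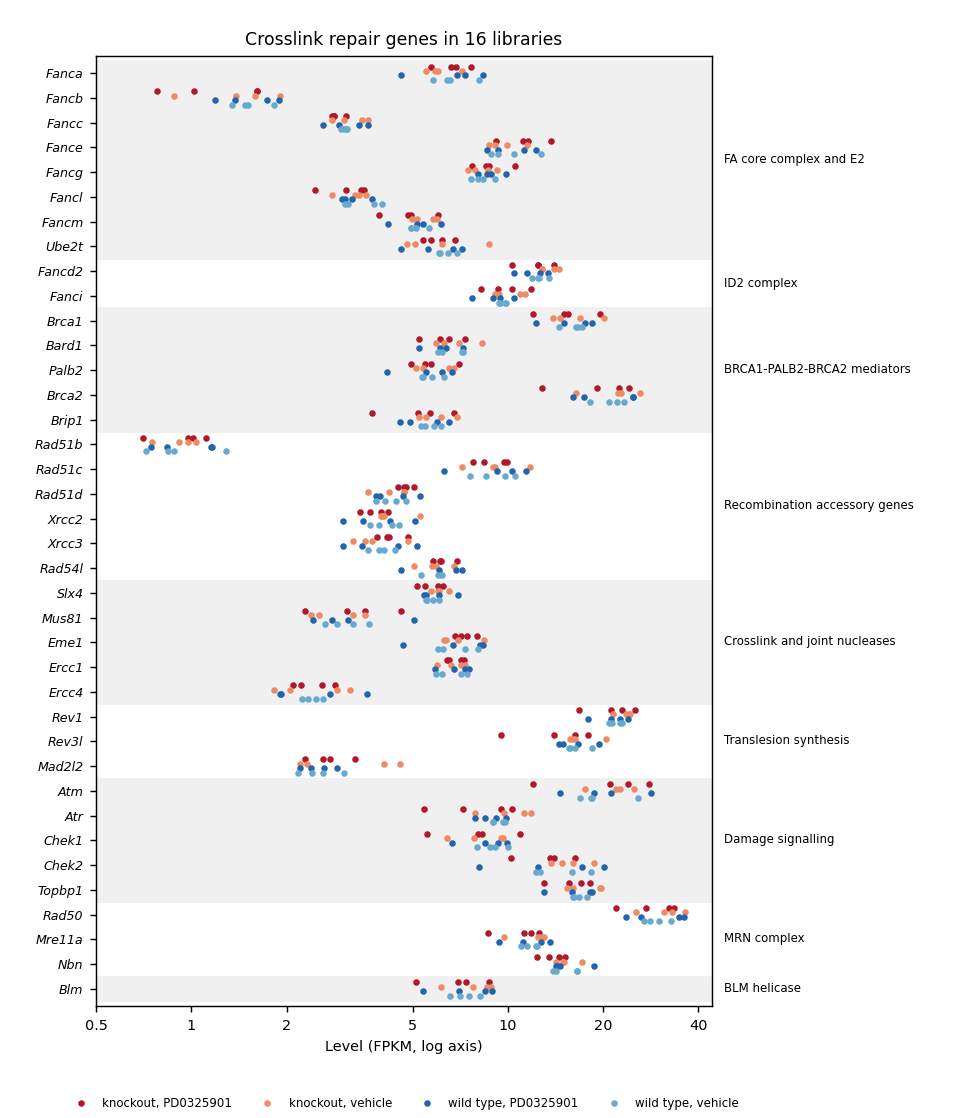
Level in FPKM (log axis) of each of the 38 genes in the 16 libraries, 1 point a library, coloured by group and ordered by role. The 4 groups overlap for every gene, from Rad50 at the high end (21.9 to 36.2 FPKM) to Rad51b at the low end (0.705 to 1.28 FPKM).

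No gene of the set differed with loss of Spry4 or with MEK inhibition beyond the spread between libraries. Knockout against wild type was tested under PD0325901, under vehicle and over both, PD0325901 against vehicle was tested in knockout, in wild type and over both, and the last of 8 comparisons were the interaction of genotype with inhibitor and KO_PD against WT_vehicle. In each of them limma called 0 of the 38 genes at an adjusted p under 0.05 (all genes called 0%). In this main fit 0 of the 38 had an unadjusted p under 0.05 in any comparison, which did not hold under every alternative fit. Among all 12907 genes tested limma likewise called 0 in each comparison, so Spry4 itself was not called between knockout and wild type. Genes with an unadjusted p under 0.05 numbered 605 for KO_PD against WT_PD, 251 for KO_vehicle against WT_vehicle and 561 for the pooled genotypes. They numbered 382 for KO_PD against KO_vehicle, 115 for WT_PD against WT_vehicle, 238 for the pooled treatments and 195 for KO_PD against WT_vehicle, and the interaction lay between 195 and 238. Each of these counts is below the share of 0.05 of the 12907 genes that would be expected where no gene differs. A second test, limma voom on reads recovered from the FPKM values, called 0 genes in each of the 8 as well, with 106 to 565 at an unadjusted p under 0.05. In the 5 comparisons of 1 group with another, no gene of the 38 had its 4 libraries clear of the other 4. Of all genes tested 2.28% did so between KO_PD and WT_PD, 1.46% between KO_vehicle and WT_vehicle, 1.7% between KO_PD and KO_vehicle, 0.659% between WT_PD and WT_vehicle and 1.22% between KO_PD and WT_vehicle.

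The 95% intervals give, for each gene singly, the differences compatible with the spread among these libraries. As that spread may be technical, they do not bound a difference between animals. In each of the 8 comparisons the 95% interval of all 38 genes lay within 1 log2 unit of zero. That is within 2-fold either way for FPKM + 0.5, which understates fold changes of low genes such as Rad51b and Fancb. For the pooled genotypes all 38 intervals lay within 0.5 log2 units, or 1.41-fold, and for the pooled treatments 37 did, the exception being the checkpoint kinase Chek2, whose interval for PD0325901 minus vehicle reached -0.51. The median log2 difference of the 38 genes was 0.00 for knockout minus wild type and -0.06 for PD0325901 minus vehicle, beside -0.02 and 0.01 over all genes tested. The lowest median of the 4 comparisons between groups that differ in 1 factor was -0.08, for KO_PD minus KO_vehicle, with 28 of 38 differences negative and a median of 0.00 over all genes. Without KO_PD 4 that median was -0.006, with 18 of 38 differences positive. The sign for the inhibitor did not hold within sets of libraries. The column names carry a running library number, and replicates 1 and 2 of every group have the lower 8 numbers. Within these the pooled PD0325901 minus vehicle median was 0.06, with 31 of 38 differences positive, and within the higher 8 numbers it was -0.17, with 6 of 38 positive.

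**Figure D2:**
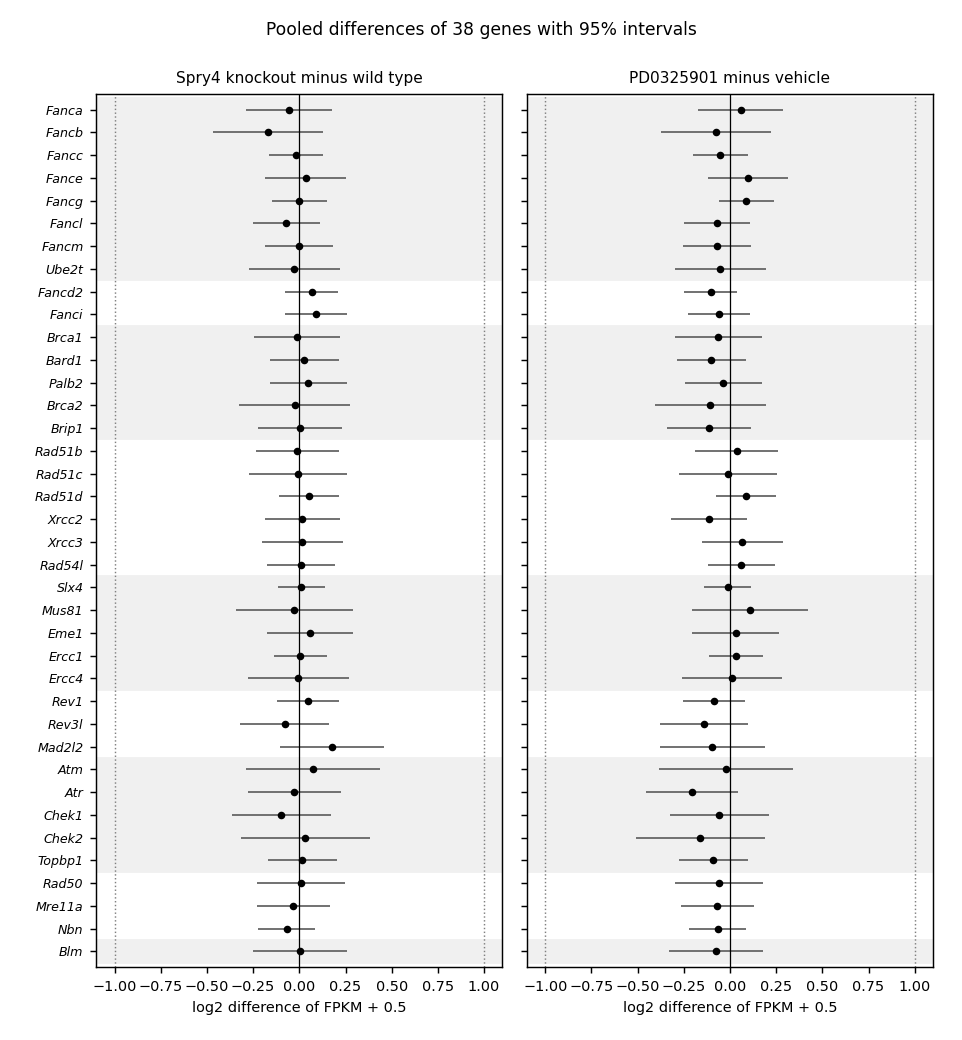
Pooled log2 differences of FPKM + 0.5 for each of the 38 genes with 95% intervals, knockout minus wild type on the left and PD0325901 minus vehicle on the right, with dotted lines at a 2-fold change either way. Every interval includes zero; the largest differences are 0.18 for Mad2l2 and -0.17 for Fancb between genotypes and -0.21 for Atr between treatments.

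The Fanconi core complex is the ubiquitin ligase of the pathway, and 8 of its 9 listed genes with its E2 enzyme are in the table. Fance, the subunit that bridges the core to FANCD2, was highest at a mean of 10.5 FPKM, with Fancg at 8.57, Fanca at 6.59, the E2 enzyme Ube2t at 6.16 and the translocase Fancm, which binds the stalled fork, at 5.196 FPKM. The catalytic subunit Fancl averaged 3.28 FPKM and Fancc 3.07 FPKM. Fancg had 7.7, 8.497, 8.72 and 10.5 FPKM in knockout with PD0325901 and 7.48, 7.86, 9.25 and 8.62 FPKM in knockout with vehicle. Wild-type Fancg was 8.57, 8.84, 9.88 and 8.07 FPKM with PD0325901 and 7.63, 8.02, 9.09 and 8.34 FPKM with vehicle. The highest library, KO_PD 4, and the lowest, KO_vehicle 1, were both knockout, and all groups overlapped. WT_PD minus WT_vehicle was 0.09 log2 units (SE 0.10), the smallest p of the 38 in that comparison at an adjusted p of 0.9999 by limma, and 0.04 without WT_PD 3. The knockout libraries held Fancb at 1.61, 1.61, 1.015 and 0.776 FPKM with PD0325901 and 1.38, 1.902, 1.58 and 0.883 FPKM with vehicle. The wild-type libraries held it at 1.89, 1.74, 1.19 and 1.37 FPKM with PD0325901 and 1.82, 1.35, 1.504 and 1.48 FPKM with vehicle. Fancb, an X-linked core subunit, was below 1.1 FPKM in KO_PD 3, KO_PD 4 and KO_vehicle 4 and in no wild-type library, but KO_PD 1 and KO_PD 2 lay among the wild-type values. KO_PD minus WT_PD was -0.24 (SE 0.20, limma adjusted p = 0.9998), on 76 to 172 reads a library. It was -0.10 without KO_PD 4 and -0.34 without KO_PD 2.

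Ube2t stood at 5.4, 6.805, 6.19 and 5.73 FPKM in knockout with PD0325901 and 4.79, 6.18, 8.75 and 5.103 FPKM in knockout with vehicle. Its wild-type values were 7.18, 6.69, 4.58 and 5.58 FPKM with PD0325901 and 6.12, 6.44, 6.06 and 6.899 FPKM with vehicle. KO_vehicle 3 was high and WT_PD 3 low, and the 4 groups overlapped. The FANCD2 and FANCI pair, the substrate of the core complex, was expressed at 12.6 and 9.72 FPKM. Fancd2 had 12.5, 13.96, 12.5 and 10.3 FPKM in knockout with PD0325901 and 12.8, 13.97, 14.5 and 12.8 FPKM in knockout with vehicle. Wild-type Fancd2 was 13.4, 12.6, 10.4 and 11.5 FPKM with PD0325901 and 12.5, 12.5, 11.9 and 13.5 FPKM with vehicle. Fancd2 varied by 1.41-fold in all, with KO_PD 4 and WT_PD 3 lowest. It was among the 3 genes of smallest p in 3 comparisons, at a log2 difference of 0.10 (SE 0.09) for KO_vehicle minus WT_vehicle, -0.14 (SE 0.09) for KO_PD minus KO_vehicle and -0.07 (SE 0.09) for WT_PD minus WT_vehicle. The limma adjusted p was at least 0.968 in each. The first was 0.06 without KO_vehicle 3, the second -0.06 without KO_PD 4, and the last -0.01 without WT_PD 3 and 0.05 within the lower 8 library numbers.

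Among the BRCA1, PALB2 and BRCA2 mediators of homologous recombination, Brca2 averaged 20.8 FPKM, Brca1 15.97, its RING partner Bard1 6.51, the bridging protein Palb2 5.77 and the helicase Brip1 5.62 FPKM. The knockout libraries held Bard1 at 6.11, 7.33, 6.52 and 5.23 FPKM with PD0325901 and 6.27, 6.99, 8.28 and 5.93 FPKM with vehicle. The wild-type libraries held it at 6.097, 7.22, 5.24 and 6.36 FPKM with PD0325901 and 7.21, 6.19, 6.01 and 7.16 FPKM with vehicle. The groups overlapped, with KO_vehicle 3 highest and KO_PD 4 and WT_PD 3 lowest. WT_PD minus WT_vehicle was -0.09 (SE 0.12, limma adjusted p = 0.9999), and -0.02 without WT_PD 3 or -0.16 without WT_PD 2. Palb2 stood at 5.46, 7.02, 5.74 and 4.95 FPKM in knockout with PD0325901 and 5.41, 6.501, 6.78 and 5.14 FPKM in knockout with vehicle. Its wild-type values were 6.65, 6.21, 4.14 and 5.51 FPKM with PD0325901 and 6.27, 5.36, 5.41 and 5.77 FPKM with vehicle. Palb2 was lowest in WT_PD 3 and KO_PD 4 and highest in KO_PD 2, so the extremes lay in libraries given the inhibitor. Brca2 showed the same pair of low libraries, at 12.9 FPKM in KO_PD 4 and 16.05 FPKM in WT_PD 3, against 16.4 to 26.1 FPKM in the other libraries.

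Of the genes that assist the mediators in homologous recombination, Rad51c averaged 9.16 FPKM, Rad51d 4.44, Xrcc2 4.05, Xrcc3 4.03 and Rad51b 0.944 FPKM, and the DNA translocase gene Rad54l averaged 6.05 FPKM. Rad51c had 9.74, 9.97, 8.398 and 7.74 FPKM in knockout with PD0325901 and 8.996, 9.11, 11.8 and 7.15 FPKM in knockout with vehicle. Wild-type Rad51c was 10.3, 11.4, 6.28 and 9.26 FPKM with PD0325901 and 10.5, 8.53, 7.57 and 9.81 FPKM with vehicle. KO_vehicle 3 and WT_PD 2 were high and WT_PD 3 was low. The knockout libraries held Rad51b at 0.974, 1.12, 1.01 and 0.705 FPKM with PD0325901 and 0.974, 1.03, 0.916 and 0.7504 FPKM with vehicle. The wild-type libraries held it at 1.15, 1.16, 0.743 and 0.839 FPKM with PD0325901 and 1.28, 0.718, 0.882 and 0.842 FPKM with vehicle. Rad51b stood above 1.2 FPKM in WT_vehicle 1 alone, and every group held values under 0.9 FPKM. The group means were 0.952 ± 0.175 FPKM, 0.919 ± 0.122 FPKM, 0.974 ± 0.215 FPKM and 0.931 ± 0.244 FPKM in the order KO_PD, KO_vehicle, WT_PD and WT_vehicle (SD, n = 4 each).

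The nucleases that unhook the crosslink or cut recombination joints are SLX4, the scaffold, with MUS81 and EME1, and the pair of ERCC1 and ERCC4 (also called XPF). Eme1 averaged 7.06 FPKM, Ercc1 6.77, Slx4 5.88, Mus81 3.19 and Ercc4 2.47 FPKM. Slx4 stood at 6.24, 5.18, 6.03 and 5.48 FPKM in knockout with PD0325901 and 5.996, 5.71, 6.503 and 6.06 FPKM in knockout with vehicle. Its wild-type values were 6.04, 6.95, 5.52 and 5.43 FPKM with PD0325901 and 5.81, 5.55, 5.51 and 6.07 FPKM with vehicle. All values fell within 5.18 to 6.95 FPKM and the groups overlapped. KO_vehicle minus WT_vehicle was 0.07 (SE 0.08, limma adjusted p = 0.9998), and 0.04 without KO_vehicle 3. Mus81 had 3.55, 2.28, 3.11 and 4.602 FPKM in knockout with PD0325901 and 3.24, 2.39, 2.53 and 3.54 FPKM in knockout with vehicle. Wild-type Mus81 was 2.42, 2.78, 5.05 and 3.13 FPKM with PD0325901 and 2.89, 3.23, 3.63 and 2.65 FPKM with vehicle. WT_PD 3 and KO_PD 4 were highest, as they were for Fancg, and KO_PD 2 was lowest. The knockout libraries held Ercc4 at 2.59, 2.09, 2.22 and 2.85 FPKM with PD0325901 and 2.89, 1.83, 2.04 and 3.17 FPKM with vehicle. The wild-type libraries held it at 1.91, 1.91, 3.59 and 2.73 FPKM with PD0325901 and 2.33, 2.48, 2.61 and 2.24 FPKM with vehicle. WT_PD 3 was again highest, and KO_vehicle held both the lowest library and the second highest.

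Translesion synthesis relies on REV1, a scaffold, and on polymerase zeta, whose catalytic subunit is REV3L and whose REV7 subunit is encoded by Mad2l2. Rev1 averaged 22.1 FPKM, Rev3l 16.1 and Mad2l2 2.77 FPKM. Rev1 stood at 23.01, 25.2, 21.1 and 16.8 FPKM in knockout with PD0325901 and 23.7, 24.4, 24.2 and 21.5 FPKM in knockout with vehicle. Its wild-type values were 23.9, 22.6, 17.9 and 21.2 FPKM with PD0325901 and 23, 21.3, 20.8 and 22.6 FPKM with vehicle. Only KO_PD 4 and WT_PD 3 fell below 20 FPKM. Rev3l had 16.3, 17.9, 14.02 and 9.54 FPKM in knockout with PD0325901 and 16.02, 20.4, 16.3 and 15.8 FPKM in knockout with vehicle. Wild-type Rev3l was 19.3, 16.7, 14.5 and 14.96 FPKM with PD0325901 and 18.4, 16.3, 15.7 and 15.6 FPKM with vehicle. KO_PD 4 was far below the rest and KO_vehicle 2 above them. KO_PD minus KO_vehicle was -0.27 (SE 0.16, limma adjusted p = 0.968) and KO_PD minus WT_PD -0.20 (SE 0.16, adjusted p = 0.9998). Without KO_PD 4 these were -0.09 and -0.02. The comparisons share the KO_PD libraries. The knockout libraries held Mad2l2 at 3.29, 2.596, 2.29 and 2.74 FPKM with PD0325901 and 4.05, 2.31, 4.55 and 2.204 FPKM with vehicle. The wild-type libraries held it at 2.195, 2.89, 2.39 and 2.61 FPKM with PD0325901 and 2.599, 3.04, 2.18 and 2.401 FPKM with vehicle. KO_vehicle 1 and KO_vehicle 3 exceeded every other library, and the other KO_vehicle libraries lay near the bottom of the range. KO_vehicle minus WT_vehicle was 0.26 (SE 0.19, 95% interval -0.14 to 0.66, limma adjusted p = 0.9998), the largest difference of the 38 in that comparison. It was 0.10 without KO_vehicle 3, the library with the spermatid transcripts, and 0.15 without KO_vehicle 1.

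Damage signalling holds the 3 genes of largest range on the log2 scale, Chek2, Atm and Atr. Atm, the kinase that answers double-strand breaks, averaged 20.9 FPKM, Topbp1, which activates ATR, 16.7, Chek2 14.7, Atr, the kinase of stalled forks, 9.11 and Chek1 8.52 FPKM. Atm stood at 23.98, 27.9, 21.1 and 12 FPKM in knockout with PD0325901 and 21.9, 24.97, 22.6 and 17.5 FPKM in knockout with vehicle. Its wild-type values were 28.4, 21.2, 14.7 and 18.7 FPKM with PD0325901 and 25.8, 18.5, 16.9 and 18.3 FPKM with vehicle. KO_PD 4 and WT_PD 3 were lowest and WT_PD 1 and KO_PD 2 highest, so both inhibitor groups held both extremes. Chek2 had 14, 16.3, 13.6 and 10.2 FPKM in knockout with PD0325901 and 14.8, 16.1, 18.8 and 13.7 FPKM in knockout with vehicle. Wild-type Chek2 was 20.1, 17.2, 8.11 and 12.4 FPKM with PD0325901 and 18.3, 12.3, 12.7 and 15.96 FPKM with vehicle. Chek2, the effector kinase of ATM, had the largest range of the 38, 1.26 log2 units, set by WT_PD 1 and WT_PD 3 within a group. The knockout libraries held Atr at 9.53, 10.3, 7.19 and 5.42 FPKM with PD0325901 and 9.71, 11.8, 11.2 and 7.87 FPKM with vehicle. The wild-type libraries held it at 9.83, 9.18, 7.88 and 8.45 FPKM with PD0325901 and 8.96, 8.98, 9.76 and 9.67 FPKM with vehicle. KO_PD 3 and KO_PD 4 lay below every other library, and the other KO_PD libraries lay within the KO_vehicle range. KO_PD minus KO_vehicle was -0.33 log2 units (SE 0.16, 95% interval -0.68 to 0.02, limma adjusted p = 0.968), the smallest p of any of the 38 genes in the 8 comparisons. Group means of Atr were 8.11 ± 2.22 FPKM in KO_PD and 10.1 ± 1.76 FPKM in KO_vehicle (SD, n = 4 each). Without KO_PD 4 the difference was -0.16, and the interaction for Atr was -0.25 (SE 0.23, limma adjusted p = 0.9993).

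RAD50, MRE11 and NBN form the complex that senses double-strand breaks and begins their resection. Rad50 stood at 32.4, 33.5, 27.2 and 21.9 FPKM in knockout with PD0325901 and 33.05, 36.2, 31.1 and 25.4 FPKM in knockout with vehicle. Its wild-type values were 35.9, 34.7, 23.7 and 26.3 FPKM with PD0325901 and 32.8, 29.9, 28.2 and 26.9 FPKM with vehicle. KO_PD 4 and WT_PD 3 were again lowest and KO_vehicle 2 highest. The group means were 28.8 ± 5.31 FPKM, 31.4 ± 4.55 FPKM, 30.2 ± 6.06 FPKM and 29.5 ± 2.57 FPKM (SD, n = 4 each, in the same order of groups). Mre11a averaged 11.6 FPKM. Nbn had 14.5, 15.1, 12.4 and 13.5 FPKM in knockout with PD0325901 and 15.04, 17.2, 14.2 and 14.9 FPKM in knockout with vehicle. Wild-type Nbn was 14.2, 14.3, 18.7 and 14.6 FPKM with PD0325901 and 13.9, 16.5, 16.6 and 14.2 FPKM with vehicle. Nbn was highest in WT_PD 3 and lowest in KO_PD 3. KO_PD minus WT_PD was -0.14 (SE 0.10, limma adjusted p = 0.9998), was -0.05 without WT_PD 3 and turned to 0.06 within the lower 8 library numbers. Blm, the helicase that dissolves recombination joints, averaged 7.41 FPKM and ranged from 5.14 FPKM in KO_PD 4 to 8.89 FPKM in WT_PD 1.

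The set varied between libraries of the same group. KO_PD 4 and WT_PD 3, the libraries that most often held a gene's lowest value, had the highest levels of peritubular myoid markers. The mean log2 level of that list was 7.11 in KO_PD 4 and 7.21 in WT_PD 3, against 5.06 to 6.86 in the other libraries. Its 12 genes, all in the table and with Acta2 among them, summed to 3352 to 9788 FPKM in KO_PD, 1379 to 7127 FPKM in KO_vehicle, 1194 to 11943 FPKM in WT_PD and 2508 to 7731 FPKM in WT_vehicle, and no gene of it was below 0.1 FPKM throughout. Each gene was therefore fitted by limma with this list mean as a numeric term beside the 4 group means. The slope gives the log2 change per log2 unit of the list mean within groups. The reason for this term came from the low values of the set itself, so the slopes of the set are not an independent test. Their counts and p-values describe the same libraries that led to the fit. Of the 11 peritubular markers tested, which make up the mean itself, 8 rose, from Col1a2 at 0.74 to Cnn1 at 1.86. The list was not uniform. Pdgfra fell at -0.18, and Col1a1 and Col3a1 were not called, at -0.12 and 0.08. The mean thus follows the contractile genes more than every marker of these cells. Markers of other somatic cells gave no common direction. Of 6 endothelial markers tested 1 rose, Esam at 0.98, and the other 5 had negative slopes that were not called (median of the list -0.14). Of 3 Sertoli markers tested Gata4 rose at 0.96, Wt1 fell at -0.33 and Clu was not called. Lhcgr, the 1 Leydig marker tested, rose at 1.34, and of 2 leukocyte markers Cd14 rose at 0.59 and Cd68 was not called. In bulk samples fewer germ cells and less RNA per cell cannot be told apart.

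Along this slope 28 of the 38 genes fell, where 23.4% of all genes fell, and 4 rose, where 32.1% of all genes rose (55.5% in either direction). The median slope of the 38 was -0.20, and that of all 12907 genes 0.01. Chek2 fell most, at -0.43 (SE 0.06, limma adjusted p = 2.0e-05). Next by size were Atm at -0.37, Brca2 at -0.32, Rad51c at -0.31 (SE 0.05, limma adjusted p = 1.3e-04), and Blm at -0.29. All 5 mediators, all 5 damage signalling genes, both FANCD2 and FANCI genes, 5 of 6 in the group of Rad51b, Rad51c, Rad51d, Xrcc2, Xrcc3 and Rad54l and 5 of 8 in the core complex group fell. The medians of these 5 groups ran from -0.16 for Fancd2 and Fanci to -0.27 for damage signalling. Palb2 fell at -0.24 (SE 0.04, limma adjusted p = 1.4e-04). The 4 genes that rose were Ercc4 at 0.32 (SE 0.05, limma adjusted p = 9.3e-05), Mus81 at 0.34 (SE 0.07, limma adjusted p = 8.3e-04), Fance at 0.24 (SE 0.05, limma adjusted p = 7.8e-04) and Rad51d at 0.14 (SE 0.04, limma adjusted p = 0.0151). Ercc1, the partner of Ercc4 in the same enzyme, had a slope of -0.02 (SE 0.05), and Eme1, the partner of Mus81, fell at -0.24 (SE 0.05, limma adjusted p = 0.00136). Fancg, Fancl, Mad2l2, Nbn and Slx4 were not called either, at slopes of 0.04, -0.11, -0.08, 0.08 and -0.08.

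**Figure D3:**
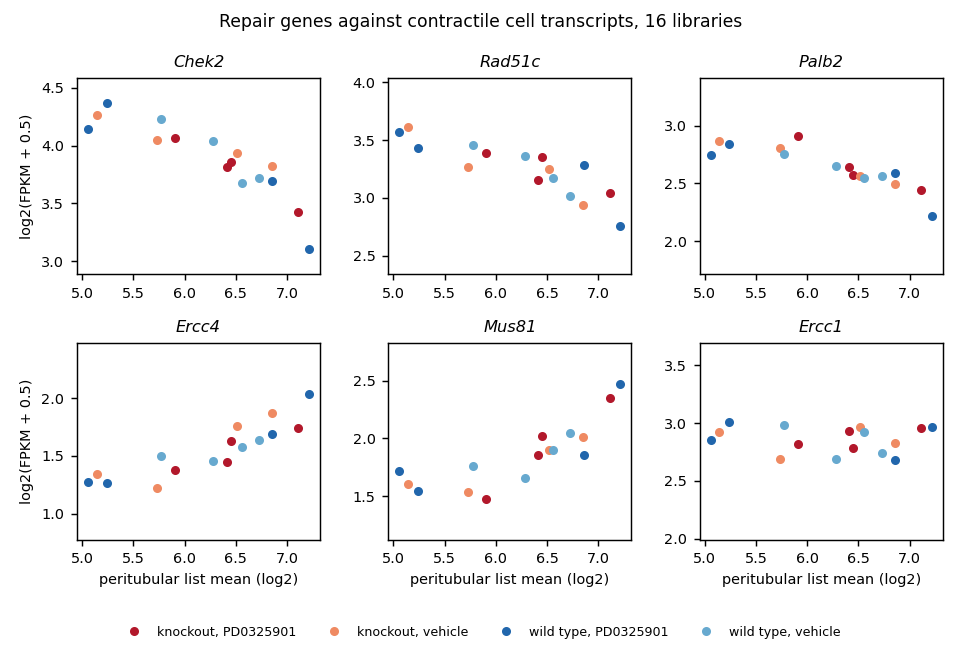
Log2(FPKM + 0.5) of 6 genes against the mean log2 level of the peritubular list, 1 point a library, coloured by group. Chek2, Rad51c and Palb2 decline across the list mean of 5.06 to 7.21, Ercc4 and Mus81 climb, and Ercc1 stays between 5.90 and 7.54 FPKM throughout.

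Germ cell marker lists are given on the same slope for comparison. Of 12 markers of undifferentiated spermatogonia 7 fell and 0 rose, with a median slope of -0.18, and Zbtb16 fell at -0.17. Of 7 germ cell markers 4 fell and 0 rose (median -0.31), with Ddx4 and Dazl, RNA-binding proteins of germ cells, both at -0.40, and all 10 meiotic markers fell (median -0.45). Of 5 markers of differentiating spermatogonia 0 were called by limma, with 2 at an unadjusted p under 0.05 and a median of -0.11, Kit being at -0.05 and Ccnd2 at 0.05. Summed levels of the 7 germ cell markers were 387 to 584 FPKM in KO_PD, 387 to 606 FPKM in KO_vehicle, 387 to 622 FPKM in WT_PD and 457 to 523 FPKM in WT_vehicle. The part of a changing share of germ cells in the slopes of the 38 genes was not tested. Scaling changes how the counts split. With every library shifted to the same median, 3124 genes rose and 5262 fell over the table, against 4146 and 3016 without the shift. Of the 38 genes 3 then rose and 30 fell, with a median slope of -0.31 beside -0.09 over all genes, and each of the 32 called genes had the sign it had without the shift. Within the lower 8 library numbers the median slope of the 38 was -0.16 and limma called 0 of them (28 genes of the table fell and 357 rose), and within the higher 8 it was -0.24, with 8 falling and 1 rising (971 and 2567 over the table). Without WT_PD 3, 26 fell and 3 rose (2291 and 3542 over the table).

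Several of these genes share exon bases with a neighbour, and any effect of this on their values was not tested. In the GENCODE M21 annotation 17 of the 38 genes share exon bases with another gene, nearly always on the opposite strand, and 9 share over 5% of theirs. The library kit was stranded, but whether counting used the strand is not given in the sources used here. Mus81 shares 4.85% of its exon bases with Efemp2, a gene of the elastic matrix on the opposite strand that averaged 13.2 FPKM and rose with the peritubular list at 0.45 (limma adjusted p = 1.4e-06). Its part in the rise of Mus81 was not tested. Rev1 shares 26.6% with Eif5b, a translation factor gene that fell at -0.14, Fanci 15.95% with the mitochondrial polymerase gene Polg at 0.02, and Rad54l 15.4% with Lrrc41 at 0.05. Ercc4 and Rad51d share none, and Fance shares 3.26%.

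A second within-group slope was fitted on the mean level of 22 DNA replication genes, none of them among the 38. Along it 20 of the 38 genes rose, where 15.7% of all genes rose, and 3 fell, where 24.5% of all genes fell (40.3% in either direction). The median slope was 1.07, and over all genes 0.01. Marker lists of cell types moved on it as well. Of 10 meiotic markers 8 rose (median 2.09), and of 7 germ cell markers 5 rose (median 1.43). Of 12 markers of undifferentiated spermatogonia 6 rose (median 0.94), and 0 fell in any of these 3 lists. Of 5 markers of differentiating spermatogonia 0 were called. Of 11 peritubular markers 8 fell and 0 rose (median -6.26). The part of a changing share of cell types in this slope was not tested. Ube2t rose at 1.67 (SE 0.29, limma adjusted p = 0.00167) and Palb2 at 1.38 (SE 0.26, limma adjusted p = 0.002302). Chek2 had the steepest rise, 2.09 (SE 0.52, limma adjusted p = 0.00806), and Chek1, which holds back mitosis while replication is unfinished, rose at 1.68 (SE 0.38, limma adjusted p = 0.00499). Mus81 fell at -2.14 (SE 0.37, limma adjusted p = 0.001797), Ercc4 at -1.80 (SE 0.34, limma adjusted p = 0.00253) and Fance at -1.08 (SE 0.38, limma adjusted p = 0.03696), the same genes that led the rises on the peritubular slope. The replication mean was lowest, 4.13, in WT_PD 3. Over the 16 libraries the replication and peritubular list means were themselves inversely related (Pearson r -0.69, Spearman rho -0.77). Opposite signs on the 2 slopes are therefore partly built in, and the second slope is not a separate result. Across the 38 genes the slopes had a Pearson r of -0.98 and a Spearman rho of -0.91, as a description over genes that share the 16 libraries. The 22 replication genes themselves fell on the peritubular slope in 15 cases, with a median of -0.13. One library carried much of the count. Without WT_PD 3, 8 of the 38 rose and 2 fell, and among all genes 551 rose and 1293 fell. Within the lower 8 library numbers limma called 0 of them, with a median slope of 0.45, and among all genes 0 rose and 1 fell. Within the higher 8, 12 of the 38 rose and 2 fell, with a median of 1.22, while among all genes 617 rose and 2264 fell. A shift to equal medians moved the median of all genes to 0.32 and that of the 38 to 1.15. It raised the number of rising genes over the table to 5019, against 2032 without the shift, and among the 38 to 30, against 20.

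**Figure D4:**
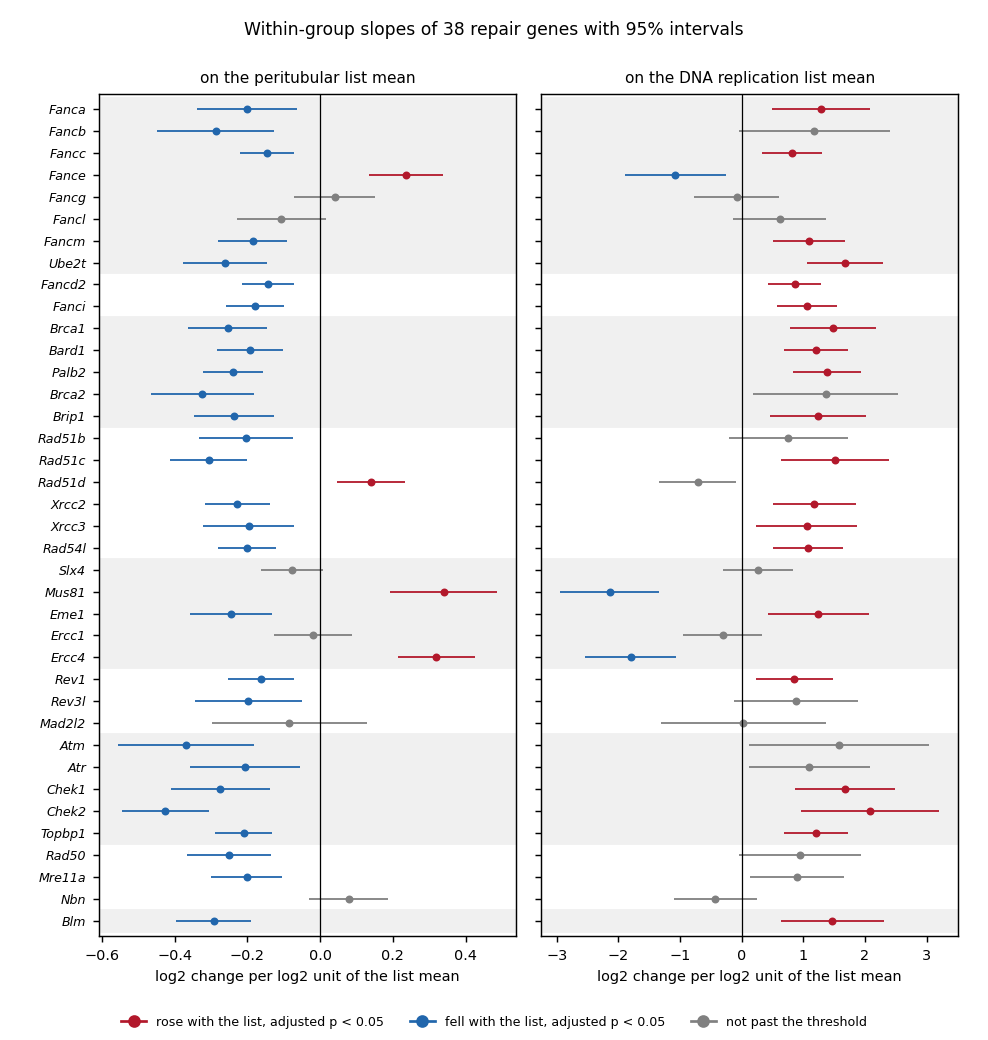
Within-group slopes of the 38 genes with 95% intervals, on the peritubular list mean (left) and on the DNA replication list mean (right), coloured by whether the adjusted p passed 0.05 and in which direction. The left panel has 28 genes below zero and 4 above it past the threshold, the right panel 3 below and 20 above, and Mus81, Ercc4 and Fance lie opposite to most others in both.

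Sequence in front of the genes was read where the promoter table has them. RefSeq starts on build GRCm38.p6 were found for 32 of the 38 genes, 36 starts in all. The window of 250 bases before to 50 after a start was searched on both strands for 3 kinds of word that stand before cell cycle genes. For E2F, the factor family of S phase genes, the words were TTTCCCGC, TTTCGCGC, TTTGCCGC and TTTGGCGC, for the CHR element of late cell cycle genes TTTGAA and TTCGAA, and for NF-Y CCAAT, and none of the words holds another. An E2F word was in the window of 6 of the 32 genes (18.8%), against 2.605% of the 27025 genes of the promoter table. Those 27025 were not limited to the genes tested here, whereas all 32 are expressed, so the shares compare unlike sets. CHR words were in 12.5% of the 32 and 21.7% of the promoter table, and CCAAT in 59.4% and 41.1%. The 6 genes with an E2F word were Bard1, Brca2, Chek2, Fancg, Rad51c and Topbp1. Sorted by peritubular slope, the word was in 5 of 24 genes that fell (20.8%), in 1 of 5 not called (20%) and in 0 of 3 that rose, too few to compare. In 5 of the 6 the word lies before the start, and those windows are shown, with those of Ercc4 and Mus81 as examples that hold none. The 250 bases before each start are chr1:71102973-71103222 on the minus strand for Bard1, chr5:150522371-150522620 on the plus strand for Brca2, chr5:110839733-110839982 on the plus strand for Chek2, chr4:43010302-43010551 on the minus strand for Fancg, chr9:103305077-103305326 on the plus strand for Topbp1, chr16:13109486-13109735 on the plus strand for Ercc4 and chr19:5488380-5488629 on the minus strand for Mus81. They are written 5′ to 3′ in the direction of the gene, with any of the 3 kinds of word in capitals.
Bard1: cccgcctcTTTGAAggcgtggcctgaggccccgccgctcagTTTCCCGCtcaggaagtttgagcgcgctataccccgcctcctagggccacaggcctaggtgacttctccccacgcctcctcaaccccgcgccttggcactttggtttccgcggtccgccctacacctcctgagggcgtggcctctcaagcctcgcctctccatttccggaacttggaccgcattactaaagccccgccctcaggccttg
Brca2: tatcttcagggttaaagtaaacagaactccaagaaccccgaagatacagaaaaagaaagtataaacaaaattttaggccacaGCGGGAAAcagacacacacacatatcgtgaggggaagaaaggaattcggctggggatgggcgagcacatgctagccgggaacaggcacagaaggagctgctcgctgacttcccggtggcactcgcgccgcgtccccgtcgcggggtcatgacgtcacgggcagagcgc
Chek2: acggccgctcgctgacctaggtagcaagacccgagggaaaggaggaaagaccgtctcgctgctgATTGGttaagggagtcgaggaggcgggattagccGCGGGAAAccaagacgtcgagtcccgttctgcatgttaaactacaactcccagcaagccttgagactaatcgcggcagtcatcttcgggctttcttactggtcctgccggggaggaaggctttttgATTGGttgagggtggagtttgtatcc
Fancg: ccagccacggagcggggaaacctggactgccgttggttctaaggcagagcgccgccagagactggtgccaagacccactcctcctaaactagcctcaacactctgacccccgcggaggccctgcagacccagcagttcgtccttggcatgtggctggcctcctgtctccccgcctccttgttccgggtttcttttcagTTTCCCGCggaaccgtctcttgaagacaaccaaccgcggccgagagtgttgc
Topbp1: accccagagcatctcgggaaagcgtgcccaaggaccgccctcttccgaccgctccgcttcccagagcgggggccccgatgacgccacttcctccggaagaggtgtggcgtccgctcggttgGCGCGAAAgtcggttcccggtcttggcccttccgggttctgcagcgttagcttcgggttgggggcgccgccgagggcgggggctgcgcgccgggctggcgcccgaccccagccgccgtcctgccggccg
Ercc4: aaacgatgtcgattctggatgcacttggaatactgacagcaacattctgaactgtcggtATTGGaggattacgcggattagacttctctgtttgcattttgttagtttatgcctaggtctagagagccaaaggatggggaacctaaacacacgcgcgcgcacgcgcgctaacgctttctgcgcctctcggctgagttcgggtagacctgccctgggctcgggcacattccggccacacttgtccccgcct
Mus81: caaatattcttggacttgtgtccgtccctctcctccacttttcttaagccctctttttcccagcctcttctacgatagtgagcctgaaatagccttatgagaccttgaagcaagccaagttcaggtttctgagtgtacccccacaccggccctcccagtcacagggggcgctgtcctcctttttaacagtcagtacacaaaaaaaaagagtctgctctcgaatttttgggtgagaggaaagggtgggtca
The E2F word begins 209 bases before the RefSeq start in Bard1, 168 in Brca2, 152 in Chek2, 52 in Fancg and 129 in Topbp1. In the GENCODE M21 annotation Fancg, on the minus strand, begins further out, at chr4:43010506, so its word lies inside the gene there. These are matches of letters only.

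A shared feature of position was the head-to-head neighbour. For 12 of the 38 genes (31.6%) another gene starts on the opposite strand within 1000 bases upstream or with up to 200 bases of overlap, against 12.2% of the 11719 protein-coding genes tested. The pairs include Fancd2 with Emc3 at 30 bases, Palb2 with Dctn5 at 56, Rad51c with Tex14 at 111, Chek2 with Hscb at 202 and Atm with Npat at 307. On the peritubular slope all 12 repair genes of the pairs fell, as did 28 of the 38 in all. Of the 11 neighbours tested 4 fell, 4 rose and 3 were not called, where 23.4% of all genes fell and 32.1% rose, and the difference between the genes and their neighbours was not tested. Tex14, a germ cell gene needed for the bridges between spermatogonia, fell at -0.25 beside -0.31 for Rad51c. Zfyve21, next to Xrcc3, rose at 0.44 where Xrcc3 fell at -0.20, and Emc3 rose at 0.13 where Fancd2 fell at -0.14. Dctn5, Mospd2 next to Fancb and Nbr1 next to Brca1 were not called.

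In the other repair pathways limma likewise called 0 genes in each of the 8 comparisons (all genes 0%), over 63 further crosslink and recombination genes, 12 of end joining, 14 of nucleotide excision repair, 11 of alkylation and base excision repair and 7 of mismatch repair. At most 2 genes of each of these lists had an unadjusted p under 0.05 in a comparison, and voom called 0 genes of the table in each. On the peritubular slope, where 23.4% of all genes fell and 32.1% rose, the lists are given by their counts, and no test compared them. Of the 63 further crosslink and recombination genes 34 fell and 2 rose (median -0.13), led by Rad54b, a relative of Rad54l, at -0.34, the checkpoint adaptor Clspn at -0.27 and the nuclease Dna2 at -0.30. End joining had 9 of 12 falling and 1 rising, Paxx at 0.38, with the Ku subunit gene Xrcc6 at -0.21 and Trp53bp1 at -0.14. Mismatch repair had 5 of 7 falling, with Pms2 at -0.21. Nucleotide excision repair, which shares Ercc1 and Ercc4 with crosslink repair, had 3 falling and 3 rising of 14 (median -0.04), with the nuclease Ercc5 at 0.42 and Ercc8 at -0.20. Alkylation and base excision repair had 4 falling and 3 rising of 11. Of 20 p53 target genes 8 rose and 3 fell, and of 17 mitotic genes 9 fell and 0 rose.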

How the data were processed

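Polyadenylated RNA was sequenced from 16 libraries of sorted spermatogonia with a stranded kit, per the labels' protocols. FPKM values per gene were deposited by the authors as a single table. FastQC, STAR 2.7.10a, edgeR 4.0.14 and the builds mm10 and GRCm39 are named in the submitters' processing notes with no role, and the counter, gene lengths and strand setting are not stated there. The members and the lists were chosen with earlier results of these data known. Of 39 listed genes Fancf was not analysed here.

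The filter kept 12907 genes that reached 1 FPKM in 4 or more libraries and left out 3476, and log2(FPKM + 0.5) was fitted with limma 3.58.1 in R 4.3.3, with a mean for each of the 4 groups over all 16 libraries. Fold changes on this scale understate those of low genes. Variances were moderated with a trend, and p-values were adjusted by Benjamini-Hochberg over all tested genes at a threshold of 0.05. Each slope adds a list mean as a term beside the group means. Some of the group comparisons, but neither slope, were tried on simulated data in which genes varied independently of each other between libraries. Symbols were matched to GENCODE M21 for 15791 genes (96.4%). Library divisors were estimated from steps between low FPKM values, where 92.9% to 94.3% of values worth fewer than 100 reads came out whole to a tolerance of 0.1, and this precision covers counting error only. Python 3.11.15 with pandas 2.3.3 and numpy 2.4.6 made the tables.

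Genes given in every library were the 3 of smallest p in each comparison of groups that differ in 1 factor and on each slope, the 3 highest and 3 lowest by mean FPKM, and the 3 of largest range. Brca2, Blm, Fance, Rad51d, Ercc1 and Eme1 were added after their values were seen. Alternatives were pseudocounts of 0.1 and 1, no filter, a replicate block, a term for library-number set, list means as terms, a shift to equal medians, leaving out each library, the compared groups alone and slopes without group means. Chosen after seeing the data were limma voom on recovered reads with median-ratio factors (12467 genes), fits within each library-number set and a fit without WT_vehicle 4 and WT_PD 4, whose values carry more decimals. Same-numbered libraries were not taken as pairs.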

Additional observations from a re-analysis of the deposited data

Results flagged for a closer look

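In 3 of 152 sets of 4 libraries (each gene in each group) a library lay far from the other libraries of its group by Dixon's test at the 95% level, and chance alone flags about 1 set in 20. Xrcc2, a homologous recombination gene, was at 5.27 FPKM in KO_vehicle 3, against 3.97 to 4.07 FPKM in the other KO_vehicle libraries. That library also held Prm1 at 739 FPKM, and the part of spermatid transcripts in the Xrcc2 value was not tested. Rev3l was at 20.4 FPKM in KO_vehicle 2, against 15.8 to 16.3 FPKM in the other KO_vehicle libraries. Nbn was at 18.7 FPKM in WT_PD 3, the library with the highest Acta2, against 14.2 to 14.6 FPKM in the other WT_PD libraries.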

How the results depend on the processing

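In the 8 comparisons of genotype and inhibitor, limma called 0 of the 38 genes under every alternative run. Of the table it called 0 genes, except for 3 lower in the pooled knockout (KO vs WT pooled). That was with mean levels of peritubular and spermatid markers added as terms. With these terms 538 to 2317 genes had an unadjusted limma p under 0.05 in the 8 comparisons, against 115 to 605 in the main fit. The 2317 were in KO_PD vs WT_PD, where the median of the 38 was 0.06 with 27 positive, against -0.02 with 14 positive in the main fit. Under any alternative at most 2 of the 38 had an unadjusted p under 0.05 in a comparison. Within the lower library numbers KO_PD vs WT_PD for Nbn turned to 0.057 and WT_PD vs WT_vehicle for Fancd2 to 0.055. The slope on peritubular list mean had 357 genes higher and 28 lower over the table, with 0 and 0 of the 38, within the lower numbers, and 2567 and 971, with 1 and 8 of the 38, within the higher numbers. With libraries shifted to the same median 5262 genes fell on it, and the median of the 38 was -0.31. The slope on DNA replication list mean had 5019 genes higher after that shift, 0 higher and 1 lower with 0 and 0 of the 38 and a median of 0.45 within the lower numbers, and 617 higher with 12 of the 38 within the higher numbers. Leaving out single libraries gave 551 to 2199 genes higher and 1293 to 3431 lower on it, and 8 to 24 of the 38 higher and 2 to 3 lower, the low ends without WT_PD 3. The cause of these shifts was not tested.

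With the replicate block 23 of the 38 fell and 4 rose on the slope on peritubular list mean (2588 and 3793 genes over the table), and 25 rose and 4 fell on the slope on DNA replication list mean (2743 and 3847 genes). Same-numbered libraries of different groups did not deviate together: over 24 such pairs the correlation of deviations ran from -0.53 to 0.73, with a median of -0.05 and 10 pairs over 0.1, and 5 of 16 libraries were closest to their own number. Depth limits Rad51b and Fancb most, at 63 to 147 and 76 to 172 reads a library.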
